A study of Mus musculus with 3 samples.

Results

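Bidirectional promoters of coding gene pairs are stretches of DNA from which 2 protein-coding genes start in opposite directions, back to back. The members were all pairs of protein-coding genes on mouse chromosomes 1 to 19 that lie on opposite strands with diverging annotated transcription start sites (TSSs) 1000 bp or less apart in mm10. This gave 714 pairs, which hold 1428 of the 20807 protein-coding genes of these chromosomes (6.86%). Each pair was measured over a window that runs from 500 bp inside the minus-strand gene to 500 bp inside the plus-strand gene. The comparison set was 18126 single promoters, which are coding genes with no other coding TSS within 1000 bp, measured over windows of the same widths.

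The cells were long-term hematopoietic stem cells (LT-HSCs) of wild-type females aged 24 months. Bone marrow was enriched for c-Kit and sorted for Sca-1, c-Kit and CD150 and against lineage markers, CD48 and CD34. Chromatin accessibility (ATAC), RNA and 12 surface antibodies were read from the same cells with DOGMA-seq, a method on the 10x Chromium platform in which the transposase Tn5 cuts open chromatin and DNA-tagged antibodies report surface protein. There was 1 pool of cells and 1 library per assay, and no other age or genotype was analysed here, so no value has a replicate and no test was made between conditions. The intervals given are 95% and cover counting error only.

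Antibody counts of at least 10 tags were held by 3629 of 3724 barcodes, and all 3724 were found in the fragment data. These cells had 38554133 nuclear fragments, with a median of 10300 per cell and a range of 3859 to 45151. Doublets were not removed. Within 500 bp of the TSS, the defining HSC genes Kit, Hlf and Meis1 had a fragment in 25.1%, 24.2% and 21.4% of cells, and all 8 HSC genes ranged from 0.138% (Mecom) to 25.1%. The 4 T cell genes ranged from 0.0276% to 0.358%, the 5 myeloid genes from 0.0551% to 1.1% and the 5 erythroid genes from 0.0276% to 3.0%. The 4 B cell genes ranged from 0.413% to 8.46% (Ebf1) and the 3 megakaryocyte genes from 0.496% to 13.4% (Pf4). The part of other cells in the values below was not tested.

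A gene's promoter is the DNA at its start where general transcription factors and RNA polymerase assemble, and in mammals most promoters of broadly used genes lie in CpG islands, stretches rich in unmethylated CpG. Polymerase often starts in both directions at such promoters, and in a bidirectional promoter both directions yield a protein-coding gene. Bidirectional pairs are known to be common among genes for DNA repair, the mitochondrion and RNA handling, genes that nearly all cells use.

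To show what lies between the starts, the reference sequence (GRCm38.p6, the assembly of mm10, plus strand) is given for pairs that the results turn on, from the first start to the second with 20 bp inside each gene. For Atm/Npat and Mcm4/Prkdc the last 300 bases are given, next to the plus-strand gene. The minus-strand gene is named first and reads leftwards from the left end, and the plus-strand gene reads rightwards from the right end. Capitals mark 4 words on either strand. They are CCGGAAG, a core of ETS family sites, then CCAAT, the NF-Y box, then GGGCGG, the GC box of Sp1 and its relatives, and last CGCATGC, the core of the NRF1 site. The first 4 sequences are of pairs that were open in more cells than the median pair, as Atm/Npat and Mcm4/Prkdc below also were.
Hjurp/Trpm8, chr1:88277613-88277681: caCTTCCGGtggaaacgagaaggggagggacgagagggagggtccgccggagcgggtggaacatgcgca
Usp5/Cdca3, chr6:124829464-124829567: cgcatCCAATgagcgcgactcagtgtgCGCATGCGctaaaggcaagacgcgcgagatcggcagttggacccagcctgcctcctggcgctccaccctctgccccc
Brca1/Nbr1, chr11:101551935-101552169: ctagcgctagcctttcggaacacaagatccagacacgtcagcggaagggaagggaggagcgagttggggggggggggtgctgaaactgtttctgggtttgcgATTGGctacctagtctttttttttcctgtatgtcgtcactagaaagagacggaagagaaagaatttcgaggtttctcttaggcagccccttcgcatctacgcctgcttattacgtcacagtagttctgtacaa
Mrps12/Sars2, chr7:28741800-28742012: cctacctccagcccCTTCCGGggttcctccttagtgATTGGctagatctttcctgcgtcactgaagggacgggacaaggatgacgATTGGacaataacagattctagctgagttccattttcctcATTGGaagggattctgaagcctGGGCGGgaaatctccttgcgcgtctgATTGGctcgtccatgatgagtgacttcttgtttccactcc
The next sequences show a DNA repair gene beside a histone gene activator, and a helicase gene beside a DNA end joining gene, with an NRF1 word at the Prkdc start.
Atm/Npat, chr9:53536768-53537067: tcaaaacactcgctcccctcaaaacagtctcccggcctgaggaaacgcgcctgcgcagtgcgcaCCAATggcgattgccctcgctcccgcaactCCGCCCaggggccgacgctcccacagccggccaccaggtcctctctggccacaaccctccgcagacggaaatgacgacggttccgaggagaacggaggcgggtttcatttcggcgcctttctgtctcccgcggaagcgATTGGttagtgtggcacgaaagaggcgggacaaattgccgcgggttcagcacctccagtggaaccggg
Mcm4/Prkdc, chr16:15637587-15637886: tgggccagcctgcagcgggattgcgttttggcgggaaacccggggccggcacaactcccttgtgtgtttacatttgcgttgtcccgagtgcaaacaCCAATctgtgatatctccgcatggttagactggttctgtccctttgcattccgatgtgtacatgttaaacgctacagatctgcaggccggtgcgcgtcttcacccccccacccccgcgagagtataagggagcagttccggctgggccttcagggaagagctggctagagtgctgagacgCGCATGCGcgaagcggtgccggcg
Another set shows both pairs with a gene of the group called blood regulators below, and a pair chosen for its high ratio of CD274-high to CD274-low cells.
Wrap53/Trp53, chr11:69580235-69580379: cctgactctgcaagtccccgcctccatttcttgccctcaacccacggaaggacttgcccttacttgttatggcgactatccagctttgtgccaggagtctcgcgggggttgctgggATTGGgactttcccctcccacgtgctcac
Plgrkt/Cd274, chr19:29367370-29367475: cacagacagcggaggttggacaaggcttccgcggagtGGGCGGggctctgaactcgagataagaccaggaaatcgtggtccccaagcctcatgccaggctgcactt
Kctd19/Lrrc36, chr8:105413482-105413591: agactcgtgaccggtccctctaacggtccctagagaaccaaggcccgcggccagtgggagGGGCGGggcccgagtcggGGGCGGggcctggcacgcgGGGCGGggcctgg
The last set shows pairs whose fragments lay on 1 side, and a pair of collagen genes with few fragments.
Rad51c/Tex14, chr11:87404934-87405085: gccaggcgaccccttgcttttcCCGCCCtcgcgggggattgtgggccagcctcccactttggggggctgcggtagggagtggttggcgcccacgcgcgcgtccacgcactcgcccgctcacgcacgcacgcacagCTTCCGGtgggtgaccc
Ndufa5/Asb15, chr6:24527993-24528164: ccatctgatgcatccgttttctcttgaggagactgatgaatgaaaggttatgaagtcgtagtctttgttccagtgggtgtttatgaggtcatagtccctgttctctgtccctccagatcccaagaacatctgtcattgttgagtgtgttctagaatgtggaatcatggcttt
Col4a4/Col4a3, chr1:82586829-82586941: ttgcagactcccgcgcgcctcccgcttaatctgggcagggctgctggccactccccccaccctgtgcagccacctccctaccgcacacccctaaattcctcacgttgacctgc

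The stretch of Mrps12/Sars2 held 4 NF-Y boxes, at 16, 65, 105 and 153 bp from the Mrps12 start, with an ETS word beside the Mrps12 start and a GC box 40 bp from the Sars2 start. Brca1/Nbr1 had a single NF-Y box, 82 bp from the Brca1 start and 108 bp from the Nbr1 start. Kctd19/Lrrc36 held 3 GC boxes in a row. Ndufa5/Asb15 and Col4a4/Col4a3 held none of the 4 words in the printed stretch. These are matches of letters and were not tested as binding sites.

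Over the whole windows, the ETS word CCGGAAG was found in 43.6% of pairs and in 17.4% of single promoters of the same widths. Base composition differed too, since 599 pairs (83.9%) were CpG-rich, taken as a ratio of observed to expected CpG of at least 0.6 and a GC content of at least 50%, against 6725 single promoters (37.1%). Among CpG-rich windows alone, CCGGAAG was in 46.6% of pairs and 28.6% of single promoters. The GC box did not differ in this way, with 93.5% and 94.8%. The NRF1 word CGCATGC was in 15.4% and 13.0% of CpG-rich pairs and single promoters, and TTCCCGC, a word of E2F sites, in 32.7% and 27.1%. AAGATGG, the core of YY1 sites, was in 27.2% and 20.1%, and TGACGTC, most of the CRE of ATF and CREB factors, in 14.0% and 10.6%. The NF-Y box CCAAT was in 71.5% and 69.5%. The E-box CACGTG was in 25.4% and 24.6%, and ACTACAA, the core of the ZNF143 site, in 12.5% and 8.95%.

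TATAAA, the word of the TATA box, was in 17.2% of CpG-rich pairs and 24.8% of CpG-rich single promoters, and over all windows in 18.9% and 41.4%. Its distance from a start was not examined, so these are not shares of promoters with a TATA box. The GATA word AGATAA was in 19.2% and 23.6% of CpG-rich windows, the RUNX word TGTGGTT in 10.5% and 13.4%, and the AP-1 word TGACTCA in 9.35% and 10.4%. Over all windows these 3 words were in 21.4%, 11.1% and 9.52% of pairs and in 38.0%, 19.1% and 15.4% of single promoters. Pairs with a GATA word had a median level of 25.4 and those without of 30.3 fragments per kb per 1000000 nuclear fragments. The order was the same for TATAAA (25.2 and 30.2), TGTGGTT (27.3 and 29.5) and TGACTCA (26.6 and 29.6), and opposite for the remaining words. Level and GC content had a rank correlation of 0.345 over the pairs, and these medians were not matched for GC content. Both strands were searched over the whole window, and words can overlap one another.

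Most pairs lay close together. The distance between the starts had a median of 127 bp and a range of 1 to 987 bp, and 495 pairs (69.3%) were 200 bp or less apart. Just inside the distance limit, 10 pairs over 900 bp apart had a median level of 15.5 and a median open share of 25.8% of cells. Just outside it, 11 pairs over 1000 and up to 1100 bp apart had 11.9 and 21.3%. A level is the number of fragments whose midpoint lies in the window, per kb of window and per 1000000 nuclear fragments of the kept cells.

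Pairs were far more open than single promoters as a set, by a ratio that differed with base composition. The median level was 29.3 over 714 pairs, with quartiles of 19.7 and 40.01, and 4.27 over 18126 single promoters, with quartiles of 0.165 and 18.1. The ratio of the medians was 6.87 (log2 2.78). In 679 pairs (95.1%) the level was above the single promoter median. The single promoters' 90th percentile was 33.4, which 10.0% of them pass by definition, and 271 of 714 pairs passed it. Among CpG-rich windows the medians were 31.3 for pairs and 21.0 for single promoters, a ratio of 1.49. Among CpG-poor windows they were 14.3 over 115 pairs and 0.373 over 11401 single promoters, so that the ratio there was above that of all windows. The CpG-poor sets were not alike in base composition. Their median CpG ratios were 0.522 in pairs and 0.245 in single promoters, and their median GC contents 55.0% and 48.2%. The CpG-poor values are thus no comparison at equal composition. Level and the CpG ratio had a rank correlation of 0.35 over 714 pairs and of 0.82 over 18126 single promoters. These correlations run across regions of 1 library and share its depth and base composition.

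A cell was counted as open at a promoter when it had at least 1 fragment there. The median pair was open in 28.4% of the 3629 cells and the median single promoter in 4.88%. At 2 or more fragments the shares were 6.08% and 0.413%. Only 22 pairs (3.08%) were open in under 1% of cells, against 6732 single promoters (37.1%). At the other end, 325 pairs (45.5%) and 2149 single promoters (11.9%) were open in at least 30% of cells. CpG-rich pairs and single promoters reached that share in 50.8% and 28.6%. Among CpG-poor windows, where the sets were unlike in CpG ratio, 18.3% of 115 pairs and 1.96% of 11401 single promoters did so. At the lower mark of 10% of cells, the shares were 96.7% and 77.7% of CpG-rich and 61.7% and 15.7% of CpG-poor pairs and single promoters. A promoter without a fragment in a cell is not shown to be closed there, since each cell holds few fragments.

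**Figure D1:**
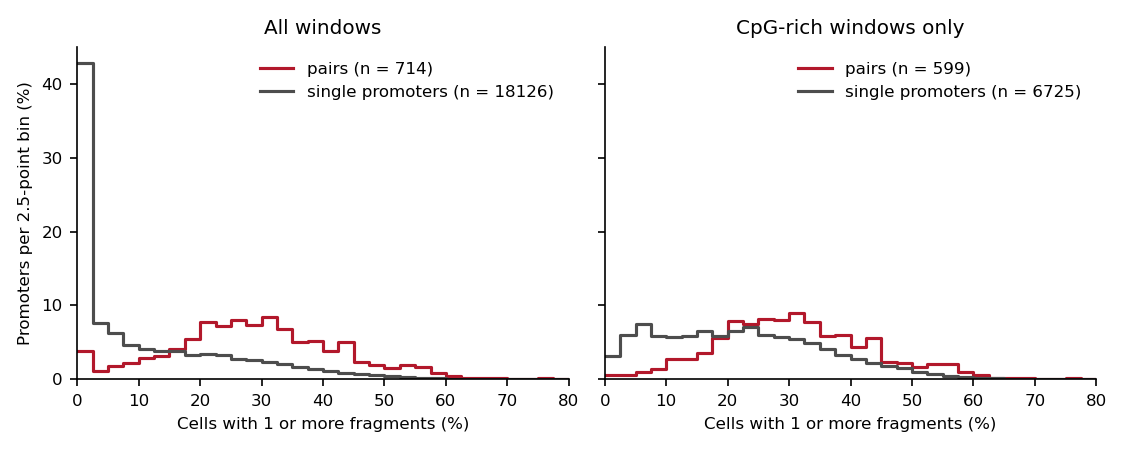
Distribution of the share of cells (x axis, %) with at least 1 fragment in the promoter window, as the percent of promoters per bin of 2.5 points (y axis), for pairs (red) and single promoters (grey), over all windows on the left and CpG-rich windows on the right. The first bin holds the single promoters that were open in few cells, a group nearly missing from the pairs, and in CpG-rich windows the pairs lie to the right of the single promoters with wide overlap (medians 30.2% and 21.4%).

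Per cell, the 714 windows took a median of 2.62% of nuclear fragments, with a 5th to 95th percentile of 2.16% to 3.18%. The windows cover 851.8 kb, and 998833 fragments fell in them. A cell had a median of 206 pairs open, with a 5th to 95th percentile of 130 to 274, and this number followed its depth (rank correlation 0.901 over 3629 cells). After each cell was thinned to 6000 nuclear fragments, leaving out 242 shallower cells, the median cell had 18.6% of pairs open, from 15.4% to 21.99% between the same percentiles.

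Hjurp/Trpm8 had the highest level, 149.8, from 5943 fragments, and was open in 76.9% of cells (75.5 to 78.2%). Hjurp encodes the chaperone that loads the centromeric histone, and Trpm8 a cold-sensing ion channel of sensory neurons. Its next neighbours in order were Usp5/Cdca3 at 90.2, Nup98/Pgap2 at 87.6, Nfya/Oard1 at 81.1 and Mob3a/Izumo4 at 80.9, open in 58.7% to 61.7% of cells. Usp5 encodes a deubiquitinase, Cdca3 a protein of the cell division cycle, Nup98 a nuclear pore protein, and Nfya a subunit of the factor that binds the NF-Y box. The lead of Hjurp/Trpm8 was outside counting error, and the intervals of the open shares of the 4 behind it overlapped. In Hjurp/Trpm8, 4075 fragments had their midpoint inside Hjurp, 421 between the starts and 1447 inside Trpm8.

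At the low end, Hist1h2ap/Hist1h2br and Hist1h2bq/Hist1h2ao had no fragment. Both are pairs of replication-dependent histone genes with near-identical copies, and how fragments that align to several copies were handled was not tested, so that no limit on their openness follows from the count of 0. Zfp558/Mbd3l1 had 1 fragment, and Gm20075/Gm17190 and Gml/Gml2 had 2 each. Mbd3l1 is a testis-expressed relative of a methyl-CpG-binding protein, and the windows of Zfp558/Mbd3l1 and Gml/Gml2 had CpG ratios of 0.0964 and 0.31.

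Textbook pairs showed a wide span of openness. Of 15 pairs taken from general knowledge, 7 met the rule, and in the other 8 the annotated starts overlap, as in Hspd1/Hspe1, the mitochondrial chaperonin genes, by 111 bp. Pdcd10/Serpini1 was open in 54.8% of cells (53.2 to 56.5%), from 3163 fragments. Pdcd10 encodes a protein of vessel integrity and Serpini1 the protease inhibitor neuroserpin. Brca1/Nbr1, a homologous recombination gene beside an autophagy receptor gene, was open in 44.5% (42.9 to 46.1%). Mcm4/Prkdc, a subunit of the replicative helicase beside the kinase of DNA end joining, was open in 42.8% (41.2 to 44.4%), and Atm/Npat, the double-strand break kinase beside an activator of histone genes, in 42.4% (40.8 to 44.0%). The intervals of these 3 pairs overlap.

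Mrps12/Sars2, which encodes a mitochondrial ribosomal protein and the mitochondrial seryl-tRNA synthetase, followed with 37.0% (35.4 to 38.6%). Wrap53/Trp53, a telomerase factor gene beside the gene of p53, was at 21.2% (19.9 to 22.6%). Col4a4/Col4a3, collagen chains of basement membranes, stood far below with 47 fragments and 1.18% (0.864 to 1.59%). Col4a4/Col4a3 was thus the only textbook member open in under 20% of cells.

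The share of genes that lay in pairs differed between gene groups, which were set by symbol. The group called RNA processing also takes in subunits of the RNA polymerases (Polr symbols), which make RNA. The group called blood regulators also takes in surface antigens such as Cd274 and genes not particular to blood such as Trp53. Histone genes came first, with 27 of 76 (35.5%) in pairs, followed by DNA repair and replication with 28 of 105 (26.7%), RNA processing with 31 of 137 (22.6%) and mitochondrial genes with 42 of 198 (21.2%). Ribosomal protein genes had 9 of 77 (11.7%), zinc finger genes 20 of 415 (4.82%), and blood regulators 2 of 56 (3.57%), against 6.86% of all coding genes. None of 7 antigen processing genes was in a pair, where Tap1/Psmb9 has starts that overlap by 211 bp.

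The pairs of 3 housekeeping groups had nearly the same median openness. The 26 DNA repair and replication pairs had a median open share of 30.7%, with 4.22% for Pinlyp/Xrcc1 at the low end. The 31 RNA processing pairs had a median of 29.6%, from 3.64% for Ddx25/Pus3 to 58.9% for Rita1/Ddx54. The 42 mitochondrial pairs had a median of 29.2%, from 6.78% for Helq/Mrps18c to 57.4% for Uqcrq/Gdf9, where Uqcrq encodes a subunit of respiratory complex III and Gdf9 an oocyte growth factor. All 714 pairs had a median of 28.4%. Single promoters of these groups had medians of 19.1%, 21.4% and 17.6%, all below the pairs.

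Ribosomal protein genes were an exception, with a median of 27.1% over 9 pairs and 29.2% over 61 single promoters. Rnf151/Rps2 was the lowest of them, at 0.579% of cells from 22 fragments, with a second low value of 14.4% in Polr3a/Rps24 and the others between 26.0% and 34.2%. Rps2 has many processed copies in the genome, and the part of its copies in this value was not tested. Zinc finger genes had a median of 26.6% over 18 pairs and 10.7% over 372 single promoters. The 18 ranged from 0.0276% in Zfp558/Mbd3l1 to 49.0% in Zfp319/Usb1.

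The 14 histone pairs, among them the 2 without a fragment, had a median of 16.3% of cells, against 16.9% over the 2 blood regulator pairs, and Hist1h2ac/Hist1h2bc was highest with 31.4%. In 13 of them both genes encode histones, which are transcribed mainly in S phase. Of 43 genes with a collagen symbol 3 lay in pairs, Col4a4 and Col4a3 in Col4a4/Col4a3 and Col4a3bp in Polk/Col4a3bp, which was open in 32.0% of cells. Despite its symbol Col4a3bp encodes a ceramide transporter and not a collagen, so that no median is given for this group.

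**Figure D2:**
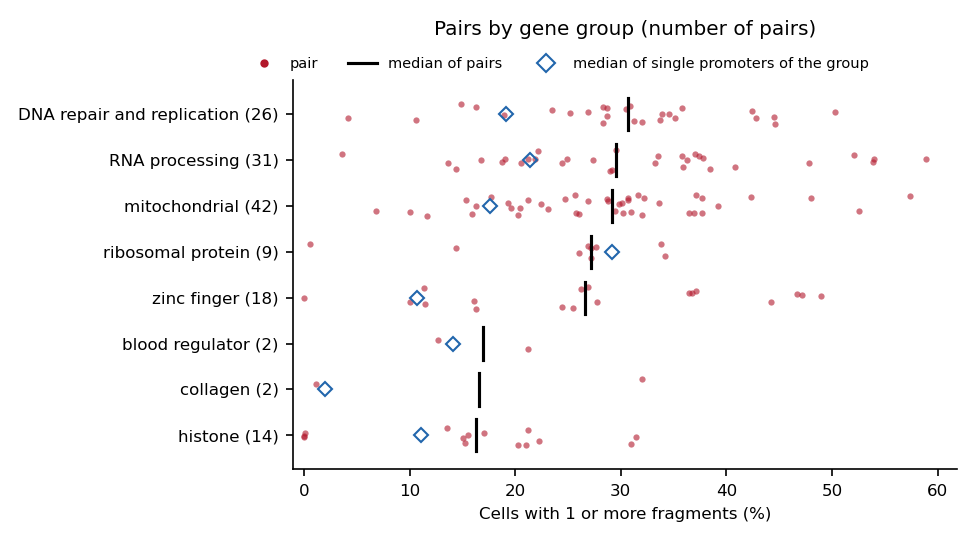
Share of cells with at least 1 fragment (x axis, %) for each pair (red points) by gene group, with the median of the pairs (black bar) and the median of the group's single promoters (blue diamond). Pair medians lie above those of single promoters in DNA repair and replication (30.7% and 19.1%), RNA processing (29.6% and 21.4%) and mitochondrial genes (29.2% and 17.6%), and just below in ribosomal protein genes (27.1% and 29.2%). The collagen row has 2 pairs, of which Polk/Col4a3bp holds no collagen gene, so that its bar is no median of collagen pairs.

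The pairs of the blood regulator group were Wrap53/Trp53 and Plgrkt/Cd274, which entered it through Trp53 and Cd274. Plgrkt encodes a plasminogen receptor and Cd274 the immune checkpoint ligand PD-L1, which the study used as a surface marker. The window of Plgrkt/Cd274 had 508 fragments, a level of 12.4 and an open share of 12.7% (11.6 to 13.8%). Of its fragments, 342 lay inside Plgrkt, 61 in the 65 bp between the starts and 105 inside Cd274. The stretch holds a GC box 17 bp from the Plgrkt start and a GATA word 24 bp from the Cd274 start. Its level ranked below the median of pairs, and the highest density of cut sites was 5 bp from the Plgrkt start, between the starts.

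Openness was concentrated between the starts. There the pooled density was 60.5 fragments per kb per 1000000 nuclear fragments, against 24.6 over the 500 bp inside the genes. In single promoters, the 500 bp inside the gene had 12.2, the same length at the far end 7.60 and the stretch in the place of the gap 16.9. With CpG-rich windows only, the gene sides of pairs and single promoters were at 26.9 and 24.3, while the far end of single promoters had 16.7. The stretch between was 70.1 in pairs and 39.4 in single promoters.

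The density between the starts changed little with distance up to 500 bp. It was 71.0 in the 300 pairs up to 100 bp apart, 75.1 in 195 pairs at 100 to 200 bp, 75.6 in 90 pairs at 200 to 300 bp and 72.2 in 63 pairs at 300 to 500 bp, where each class leaves out its lower bound. In the 66 pairs over 500 bp apart it was 34.4. Over single promoters with the same widths, the density of the matching stretch fell from 25.2 to 10.1. Level over the whole window had a rank correlation of 0.133 with distance over 714 pairs.

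The profile of cut sites around each TSS had its peak 30 to 70 bp upstream in all classes of distance, as in single promoters (30 bp). The peak height was between 0.160 and 0.177 cut sites per bp per 1000000 fragments in the 4 classes up to 500 bp apart, and 0.104 in pairs over 500 bp apart. CpG-rich single promoters had 0.124. In pairs 300 to 500 bp apart a second summit appeared near the partner's start, and in pairs over 500 bp apart the profile stayed raised out to the partner.

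Fragments between the lengths of DNA around 1 and 2 nucleosome cores, called nucleosomal here, had a downstream peak of midpoints 110 to 130 bp inside the gene in each class. Upstream, the densest point was 170 bp away in pairs up to 100 bp apart, which is inside the partner gene. In pairs 200 to 300 bp apart it was 130 bp upstream, between the starts, with a height of 0.0301 against 0.0214 inside the gene. In pairs 300 to 500 bp apart it was 170 bp upstream with 0.0334 against 0.0191. In pairs up to 100, 100 to 200 and over 500 bp apart the downstream peak was the higher one, with ratios of 1.11, 1.14 and 1.06. In single promoters the ratio was 1.61.

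**Figure D3:**
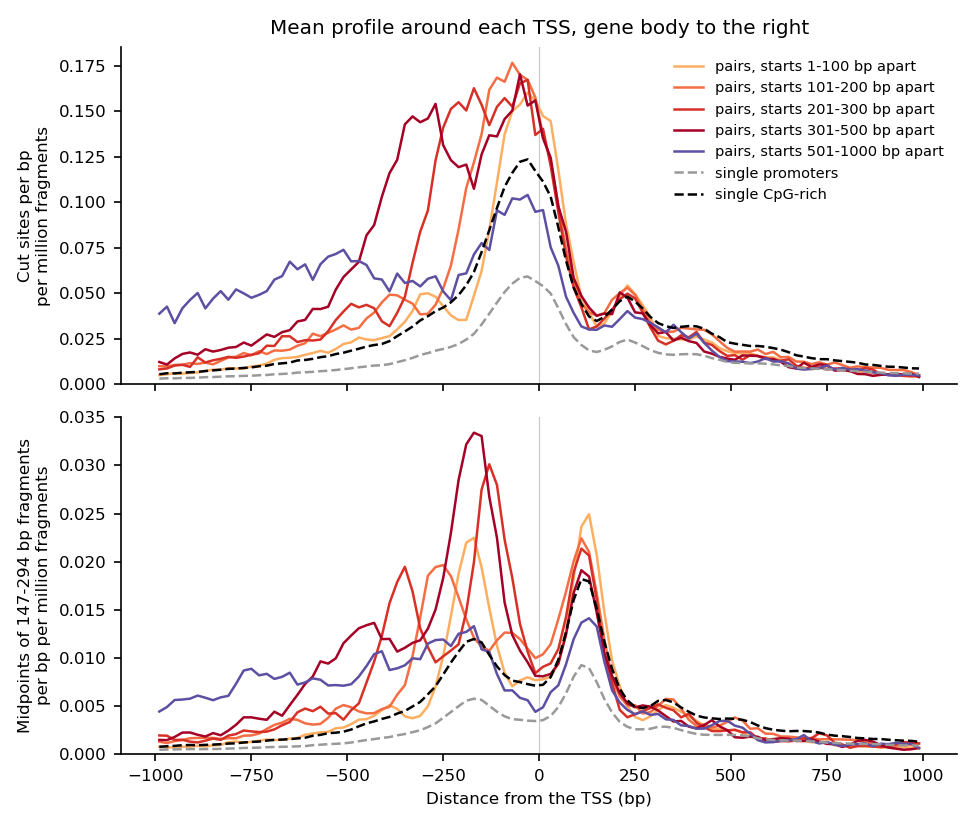
Mean cut sites per bp per 1000000 fragments (top) and midpoints of nucleosomal fragments per bp per 1000000 fragments (bottom) against the distance from each TSS (x axis, bp, gene body to the right), in 20 bp bins, for pairs by distance between starts (solid lines) and single promoters (dashed lines). Cut sites peak 30 to 70 bp upstream in all sets, and the midpoints in pairs 200 to 300 and 300 to 500 bp apart peak between the starts, at 130 and 170 bp upstream.

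The fragment lengths changed sharply within a window. Short fragments are those shorter than the DNA of a nucleosome core. Their shares between and beside the starts were pooled over pairs with at least 500 fragments, and single promoters were not split in this way. Between starts up to 100 bp apart, 86.1% of fragments were short, and inside the genes 40.5%. At 100 to 200 bp the shares were 81.4% and 36.9%, at 200 to 300 bp 70.3% and 33.0%, and over 500 bp 52.7% and 37.3%. Over all pairs, fragments that spanned both starts made up 14.8% of fragments in the closest class, 3.87% at 100 to 200 bp and 0.199% over 500 bp. In single promoters with the same widths these shares were 14.8%, 5.60% and 0.153%.

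Pairs had more short fragments than single promoters, but not at equal openness. Among windows with at least 100 fragments, the median share of short fragments was 45.8% over 687 pairs and 39.7% over 10324 single promoters. The median fragment was 167.5 bp in pairs and 192 bp in single promoters. The short share rose with level, with a rank correlation of 0.583 over the pairs and 0.726 over the single promoters. Within classes of level the order turned. At levels of 10 to 20 the medians were 37.8% in 118 pairs and 39.2% in single promoters. At 20 to 30 they were 41.6% and 45.1%, at 40 to 60 53.1% and 54.9%, and above 60 they were 59.2% and 60.9%, with pairs also lower at 30 to 40. In each of the 5 classes the quartiles of the sets overlapped. The difference of the medians, 6.13 points over all windows, was -2.02 points with single promoters weighted to the levels of the pairs. In the 363 cells with 50 or more tags it was -1.42 points. Fewer promoters held the 100 fragments required there, so that this value is no comparison at equal openness.

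Single pairs spanned a wide range of fragment lengths. With at least 500 fragments, the share of short fragments was highest in Surf4/Stkld1 (71.8%), Ndufa5/Asb15 (70.8%) and Rad51c/Tex14 (70.5%). Surf4 encodes an endoplasmic reticulum cargo receptor, Ndufa5 a subunit of respiratory complex I and Rad51c a homologous recombination protein. It was lowest in Slc30a7/Extl2 (153 of 765 fragments), Zwilch/Rpl4 (20.03%) and Cd3eap/Ppp1r13l (20.7%). Slc30a7 encodes a zinc transporter, Zwilch a kinetochore protein, Rpl4 a ribosomal protein, Cd3eap a subunit of RNA polymerase I and Ppp1r13l an inhibitor of p53. All 3 of the pairs rich in short fragments were also lopsided. Of the fragments of Surf4/Stkld1, 1925 of 2098 lay inside Surf4, with the summit of cut sites 405 bp inside the gene. In Ndufa5/Asb15 it was 818 of 862 inside Ndufa5 with the summit at 365 bp, and in Rad51c/Tex14 763 of 796 inside Rad51c with the summit at 375 bp. Between the annotated starts these 3 pairs had 85, 23 and 15 fragments.

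The summit of cut sites lay between the starts in 387 of the 636 pairs with at least 500 fragments (60.8%), inside the minus-strand gene in 123 and inside the plus-strand gene in 126. This share was 39.5% in pairs up to 100 bp apart, 72.6% at 100 to 200 bp, 84.9% at 200 to 300 bp, 78.0% at 300 to 500 bp and 69.1% over 500 bp. Where it lay inside a gene, the median depth was 35 bp, and in 59 pairs it was more than 100 bp inside.

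Over the pairs, the fragments inside the minus-strand gene's 500 bp were at a median of 48.8% of both sides, while single pairs leaned to either side. The stronger side held a median of 62.6%, and it was under 60% in 262 pairs (41.2%). In 547 of 636 pairs the interval of the share left out 50%. In 55 pairs (8.65%) the stronger side held at least 80%, and in 11 at least 90%. The minus-strand side was the stronger in 304 pairs. Which gene of a pair was transcribed more was not analysed here, and fragments carry no strand.

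Named pairs show the span. Atm/Npat was even, with 450 fragments inside Atm, 1302 in the 307 bp between and 438 inside Npat. Mcm4/Prkdc leaned to Mcm4, with 510, 1478 and 190, and Brca1/Nbr1 leaned to Nbr1, with 470, 722 and 1150. Pdcd10/Serpini1 had 590, 2420 and 153 over a gap of 691 bp. Abhd12/Gins1 and Haghl/Ccdc78 were the most uneven beside Rad51c/Tex14. Abhd12/Gins1, a lipase gene beside a gene of the replicative helicase complex, had 633 fragments inside Abhd12, 626 between and 8 inside Gins1. Haghl/Ccdc78 had 634, 116 and 14. Their starts are 659 and 907 bp apart.

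**Figure D4:**
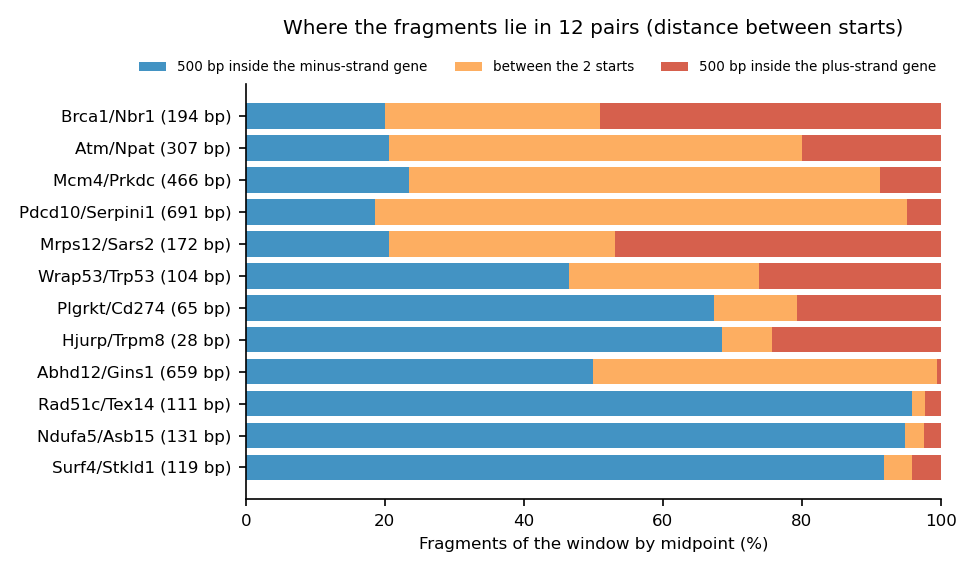
Share of a window's fragments (x axis, %, by midpoint) inside the minus-strand gene (blue), between the 2 starts (orange) and inside the plus-strand gene (red) for 12 named pairs, with the distance between starts in parentheses. Atm/Npat is even, Mcm4/Prkdc and Pdcd10/Serpini1 have most fragments between the starts, and Rad51c/Tex14, Ndufa5/Asb15 and Surf4/Stkld1 have over 90% inside 1 gene.

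The surface proteins CD61 and CD274 were used by the study as markers of platelet-biased HSCs, and CD27 and CD357 of multi-lineage HSCs. To ask whether pairs follow them, cells were divided by the raw count of each antibody into a high and a low group. Each group was aimed at 25% of cells, and ties made some larger. A cell had a median of 29 tags over the 12 antibodies. High and low cells had at least 6 and at most 1 tags for CD61, and at least 27 and at most 12 for CD274. For CD357 it was at least 5 (968 cells) and at most 1 (1200 cells). For CD27 it was at least 2 (825 cells) and 0 (1578 cells). Summed over the pairs, openness hardly differed. Of nuclear fragments, pairs took 2.60% in both the 779 CD61-high and the 727 CD61-low cells, and the log2 ratio was 0.0007 (-0.0080 to 0.0094). The ratio was 0.010 (0.0022 to 0.018) for CD274, 0.0059 (-0.0014 to 0.013) for CD357 and -0.0040 (-0.011 to 0.0032) for CD27. A combined gate took 342 cells above the median count in CD61 and CD274 but not in CD357 and CD27. Against 61 cells with the opposite pattern, the log2 ratio over pairs was 0.0006 (-0.024 to 0.025). Relative to single promoters it was -0.015 (-0.040 to 0.0091).

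Single promoters moved slightly more with CD274. Their log2 ratio was 0.031 (0.029 to 0.034), so that pairs relative to single promoters were at -0.021 (-0.029 to -0.013). For CD61 this relative value was -0.011 (-0.020 to -0.0027), and its interval reached 0 after removal of the other antibodies' counts, at -0.0065 (-0.014 to 0.0015), and in cells with 50 or more tags. It was 0.0054 (-0.0019 to 0.013) for CD357, with 0.015 (0.0066 to 0.023) after the same removal, and for CD27 -0.0039 (-0.011 to 0.0033). All 4 are below 2% in size, with intervals from counting that leave out the spread between cells. High and low cells differed little in depth, with medians of 10486 and 10218 fragments for CD61.

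Of the other 8 antibodies, CD201 had the largest value, with a log2 ratio of 0.032 (0.026 to 0.039) over pairs and 0.024 (0.022 to 0.026) over single promoters between 1119 cells with a tag and 2510 without. CD201 is the endothelial protein C receptor, a marker of HSCs. MERTK, a receptor of the TAM family, followed with 0.020 (0.012 to 0.028) over pairs and 0.011 over single promoters. The other 6 lay between -0.0079 and 0.011 over pairs. Across cells, the share of fragments in pairs had rank correlations with antibody counts from -0.0238 (CD206) to 0.0744 (CD201) after removal of depth and of the other antibodies' counts, over 3629 cells. In cells thinned to 6000 fragments, 18.8% of pairs were open in cells with and 18.5% in cells without a CD201 tag, 18.8% and 18.6% in MERTK-high and MERTK-low cells, and 18.6% in CD27-high and in CD27-low cells.

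**Figure D5:**
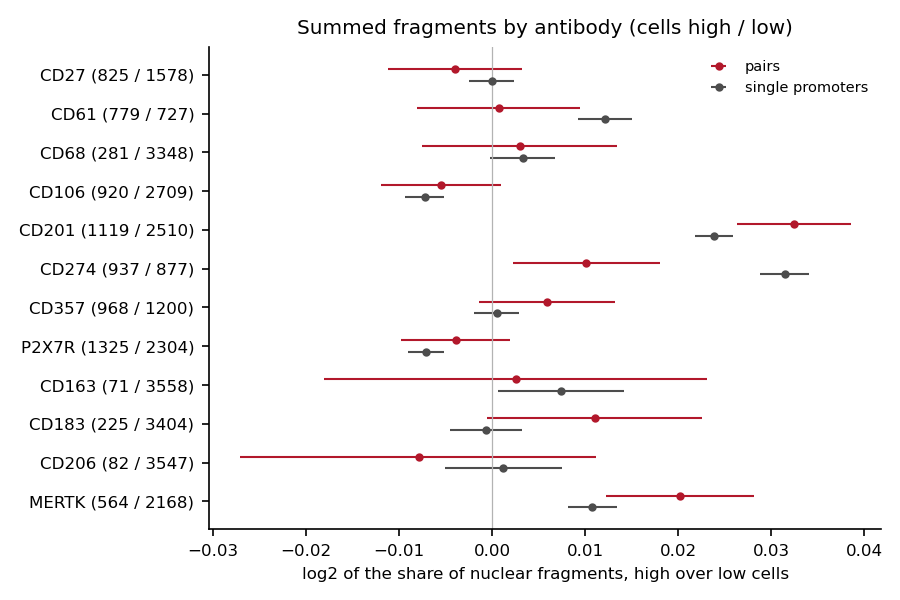
Log2 ratio of the share of nuclear fragments in cells high over low in each antibody (x axis), summed over pairs (red) and over single promoters (grey), with 95% intervals that cover counting error only and the numbers of cells high and low in parentheses. No ratio is over 0.04 in size, CD201 has the highest value over pairs (0.032) and for CD274 the pairs lie below the single promoters.

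Few single pairs passed 1.5-fold between cells high and low in a marker. With at least 100 fragments over both groups, 2 of 680 pairs passed for CD274, where 1.24% of all promoters tested did. It was 3 of 675 for CD61 (0.749% of all promoters), 1 of 684 for CD357 (0.7%) and 1 of 685 for CD27 (0.522%). In these counts the share of pairs that passed was below that of all promoters for each of the 4 markers, and in 2 alternative counts it was above, for CD357 in cells with 50 or more tags (8 of 185 pairs and 3.10% of all promoters) and for CD61 with at least 200 fragments (2 of 641 and 0.194%). These shares are at unlike fragment counts, since the median pair had 1290 fragments in all cells and the median single promoter 193, and at 200 or more fragments 0.0584% (CD27) to 0.283% (CD274) of all promoters passed. The median log2 ratio over pairs was -0.0034 for CD61 and over all promoters tested 0.010.

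The pairs at the extremes were chosen by their intervals and are a description. In CD274-high cells, Kctd19/Lrrc36 had 195 fragments against 110, a log2 ratio of 0.68 (0.34 to 1.03), and Ifit1bl2/Ifit1, a pair of interferon-induced genes, 108 against 60 and 0.70 (0.24 to 1.18). Galns/Trappc2l had 621 against 437, or 0.36 (0.18 to 0.54). The lowest for CD274 were Hist1h2ak/Hist1h2bn at -0.56 (-0.86 to -0.26), Itfg1/Phkb at -0.51 and Ndufa8/Morn5 at -0.45. None of these 3 reached 1.5-fold.

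For CD61, the highest by the lower bound of the interval were Plcd3/Acbd4, with 191 fragments against 108 and a log2 ratio of 0.61 (0.27 to 0.97), Nmnat1/Lzic with 164 against 92 and 0.62 (0.25 to 1.01), and Taf6/Cnpy4 at 0.47. Another pair that passed 1.5-fold had a lower bound below these. Plcd3 encodes a phospholipase C and Nmnat1 an enzyme of NAD synthesis. The lowest were Tmem68/Tgs1 at -0.51, Tcf19/Cchcr1 at -0.48 and Rbks/Babam2 at -0.31.

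For the multi-lineage markers, Mau2/Sugp1 (0.33), Cep57l1/Sesn1 (0.29) and Mphosph10/Mcee (0.22) were highest with CD357. Lowest were Pinlyp/Xrcc1 at -0.70 (-1.33 to -0.11), from 36 fragments against 69, Lrrc75a/Mmgt2 at -0.31 and Palb2/Dctn5 at -0.33. With CD27 the highest were Zswim7/Ttc19 (0.30), Dclre1a/Nhlrc2 (0.40) and Exoc2/Gm5447 (0.39). Lowest were Nr2e1/Ostm1 at -0.75 (-1.37 to -0.20), from 34 fragments against 104, Sox6/1110004F10Rik at -0.58 and Polr3c/Rnf115 at -0.44. Sox6 encodes a factor of red cell maturation and Palb2 a partner of the breast cancer proteins in recombination.

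Plgrkt/Cd274, which holds the gene of the CD274 antigen itself, had 139 fragments in CD274-high and 119 in CD274-low cells, a log2 ratio of 0.079 (-0.28 to 0.45). The interval reaches from a loss of under 1.5-fold to a gain of the same size, so that no difference of the window with its own surface protein was detectable at this depth. With CD61 its log2 ratio was -0.44 (-0.83 to -0.049), with CD357 0.084 (-0.24 to 0.41) and with CD27 -0.13 (-0.47 to 0.19).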

How the data were processed

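ATAC, RNA and antibody libraries were made from 1 pool of LT-HSCs. Per the file headers and the submitters' processing notes, the authors used Cell Ranger ARC 2.0.2 with mm10, and read pairs with equal ends and barcode were collapsed to 1 line per fragment with ends shifted for the transposase. The deposited values are raw counts without normalization, namely fragments with their barcodes, and antibody tag counts per cell, which the authors made with CITE-seq-Count (version not given in the sources used here). RNA counts were used as a total per cell only.

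Genes came from GENCODE M21 and sequence from GRCm38.p6, and a TSS was the outermost 5′ end of a gene. Of 734 candidate pairs, 20 that shared a gene with a closer pair were dropped. A fragment belonged to the window that held its midpoint, and single promoters were given the pairs' widths in turn, with the added width upstream. Cells with at least 10 tags were kept and doublets were not removed. Shares have exact Clopper-Pearson intervals, and log2 ratios, with 0.5 added to each count and scaled by nuclear fragments, exact conditional binomial intervals at 95%. No replicate exists and no test across samples was made. The ratio script was tested on simulated data. Calculations used Python 3.11.15, numpy 2.4.6, scipy 1.17.1 and pandas 2.3.3.

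Named pairs were the textbook pairs, the 5 highest and the 5 lowest in level, 3 at each end for each of 4 antibodies by interval, 3 at each end of short fragment share and the 3 most uneven with at least 500 fragments, and pairs with a blood regulator or antigen processing gene, beside the lowest and the highest of each gene group. The members and lists were chosen with earlier results of these data known. Alternatives covered counting, distance, the single promoters chosen, base composition, cells and antibody scaling.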

Additional observations from a re-analysis of the deposited data

Results flagged for a closer look

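Barcodes outside the antibody table entered no comparison, and they held 97618 fragments in the windows of the pairs, where a count of 0 would allow 3. This was 2.46% of the fragments of these barcodes on chromosomes 1 to 19, against 2.59% of nuclear fragments in the kept cells. The ratio of the median pair to the median single promoter was 2.94 on the log2 scale there, and the pairs' levels inside and outside the antibody table had a rank correlation of 0.982 over 714 pairs. These barcodes were not divided into cells and empty droplets here.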

How the results depend on the processing

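No paired analysis was possible because there is 1 pool and 1 library per assay. Depth limits statements on single cells, since the median pair had a fragment in 28.4% of cells. Of 92 alternative values, 66 stayed near the value reported. Near was taken as within 0.229 on the log2 scale for the level, 1.498 points for the open share and 2.73 points for the short share, which are the half-widths of counting intervals at the medians, as inside the reported interval for summed fragments between antibody groups, and as within 1.5 times for counts of pairs. The level of pairs over single promoters, a log2 ratio of 2.78 as reported, was 3.18 with single promoters without any annotated TSS within 5000 bp, and 0.58 with CpG-rich windows only. The difference in open share, 23.5 points as reported, was 8.76 points with CpG-rich windows only and 26.2 points in the 363 cells of 50 or more tags.

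The excess of short fragments, 6.13 points as reported, was 1.84 points when fragments were pooled. It turned to -1.42 points with 50 or more tags, where fewer promoters hold the 100 fragments required, and to -2.02 points when single promoters were weighted to the levels of the pairs, an alternative chosen after seeing the data. A TSS from the principal transcript, also chosen after seeing the data, gave 734 pairs, of which 601 were also found by gene ends (84.2% of 714), and moved none of the 3 results beyond these limits.

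For pairs relative to single promoters, 50 or more tags gave -0.0018 for CD61 and -0.016 for CD27, and the residual on the other antibodies 0.015 for CD357. For CD27, ties gave the same cells with wider groups. The counts of pairs past 1.5-fold, 1 to 3 as reported, were 8 for CD274, 8 for CD357 and 5 for CD27 with 50 or more tags, where 235, 185 and 197 pairs were counted. These were 3.40%, 4.32% and 2.54% of the pairs counted, against 3.70%, 3.10% and 3.75% of all promoters. They were 0 for CD274 and CD61 with wider groups, 1 for CD274 and 0 for CD61 and CD357 with the residual, and 0 for CD357 and 3 for CD27 with the centred log ratio. With 200 or more fragments they were 1 for CD274 and 0 for CD357 and CD27. Without the deepest 5% of cells they were 0 for CD357 and 3 for CD27, and with any overlapping base 0 for CD27. The cause was not tested.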
